A study of Mus musculus with 8 samples.

Results

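The proteins that coat fat droplets in liver cells, the lipase that empties them and the enzymes around them were followed in 8 mouse livers through 10 genes. These were the perilipins Plin2, Plin3, Plin4 and Plin5, the CIDE genes Cidea, Cideb and Cidec, the triglyceride lipase gene Pnpla2, its inhibitor G0s2 and the acyltransferase gene Mogat1. They were chosen by symbol, with earlier results of these data known, and all 10 were found among the 27453 genes listed. Of the 10 genes, 6 (Plin2, Plin3, Plin5, Cideb, Pnpla2 and G0s2) had enough reads for the test across all 6759 tested genes, and the other 4 are described by their reads.

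Each library was direct RNA from 1 C57BL/6JN liver, in which a nanopore reads native polyadenylated RNA molecules, and no transgene or treatment beyond age is recorded. There were 4 libraries with titles in O (O1 and O2 from males, O3 and O4 from females) and 4 with titles in Y (Y1 and Y2 from males, Y3 and Y4 from females). By their age field the O-titled animals were 12 weeks old and the Y-titled ones 80 weeks, whereas the series text sets young mice of about 2 months against old mice of about 18 months, so the letters and the ages point opposite ways. Groups are therefore named by title letter, and which of them is old cannot be told. Mapped reads ran from 545171 in Y2 to 2593200 in O1, so that 3 reads, used as the floor, correspond to between 1.16 and 5.50 counts-per-million mapped reads (CPM). Hepatocyte marker genes together held from 76069 CPM (Y1) to 118826 CPM (Y3).

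Hepatocytes store triglyceride in droplets bounded by a single layer of phospholipid. Perilipins sit on that surface and limit the access of lipases, and CIDE proteins pass lipid between touching droplets so that these grow. The lipase ATGL, encoded by Pnpla2, removes the first fatty acid from triglyceride, and the small protein G0S2 holds it back. The fatty acids set free can be burned in mitochondria, packed into very low density lipoprotein or used as ligands of the nuclear receptor PPARα, for which Plin2 and Plin5 are known targets in liver.

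The coat genes Plin2 and Plin5 were lower in O-titled livers, and both carried the nuclear receptor half-site AGGTCA near a start of transcription. RefSeq promoter windows (250 bases before to 50 after a start, build GRCm38.p6) were matched for 9 of the 10 genes, giving 11 windows. The half-site was found on either strand in the window of Plin2 and in both windows of Plin5, and in none of the other 8 windows, against 16.3% of the 32851 windows of all genes. In the sequences of these 2 genes below, read 5′ to 3′ on the gene's own strand, capitals mark the half-site and, in Plin2, the E-box CACGTG. They are shown because these are the 2 genes that passed the test, and a match of letters shows no binding.
Plin2, chr4:86670010-86670309, minus strand: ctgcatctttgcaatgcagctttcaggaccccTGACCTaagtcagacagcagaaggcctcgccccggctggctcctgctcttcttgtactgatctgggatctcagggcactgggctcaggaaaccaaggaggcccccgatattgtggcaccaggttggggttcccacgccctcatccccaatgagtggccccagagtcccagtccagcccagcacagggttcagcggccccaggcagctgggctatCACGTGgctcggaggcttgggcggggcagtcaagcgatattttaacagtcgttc
Plin5, chr17:56117499-56117798, minus strand: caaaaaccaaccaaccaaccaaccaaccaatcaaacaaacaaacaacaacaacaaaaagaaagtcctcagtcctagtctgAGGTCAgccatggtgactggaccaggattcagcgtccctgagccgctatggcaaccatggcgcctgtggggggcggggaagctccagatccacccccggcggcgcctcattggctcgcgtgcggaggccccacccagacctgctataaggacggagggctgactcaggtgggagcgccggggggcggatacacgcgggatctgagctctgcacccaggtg
The Plin2 half-site lies 218 bases before the start, on the opposite strand and so printed as its complement TGACCT. The E-box begins 4 bases before that start and runs across it. The E-box occurred in 7.15% of all windows and in 1 of the 11. The Plin5 half-site lies 170 bases before the first start. The full PPAR response element AGGTCANAGGTCA, the D-box TTATGNAA and the cyclic AMP response element TGACGTCA were in 0 of the 11 windows, and in 0.0396%, 3.38% and 1.79% of all windows.

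Plin2 encodes the main perilipin of hepatocytes and took 80.4% to 89.0% of the perilipin reads of each library. Its level (counts-per-million reads in tested genes, scaled between libraries by TMM) was 325, 326, 242 and 274 CPM in O1 to O4 and 513, 340, 579 and 549 CPM in Y1 to Y4. Each Y-titled library lay above each O-titled one, with Y2 closest, at 340 against 326 CPM in O2. The O-titled mean was 292 ± 41.0 CPM and the Y-titled mean 495 ± 107 CPM (SD, n = 4 each). Plin2 fell by 0.77 on the log2 scale in O-titled livers (SE 0.160, edgeR quasi-likelihood test with sex as covariate, adjusted p = 0.0150). Beside it, 4.01% of all tested genes passed the same test, 1.92% in the direction of a fall. The call was lost without O4, Y1 or Y4, where adjusted p rose as high as 0.0763, with folds between -0.93 and -0.65 over the 8 fits that leave out 1 library.

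Plin5, the perilipin that tethers droplets to mitochondria in oxidative tissues, was at 19.99, 32.2, 11.3 and 17.5 CPM in O1 to O4 and at 33.4, 39.6, 57.0 and 35.9 CPM in Y1 to Y4. The groups again did not overlap, although O2 (32.2 CPM) came close to Y1 (33.4 CPM). Plin5 fell by 1.09 on the log2 scale, from 41.5 ± 10.6 to 20.3 ± 8.79 CPM (SD, n = 4 each, SE 0.262, edgeR adjusted p = 0.0270). Values in which O-titled lay wholly below Y-titled libraries were found in 4.62% of all tested genes. Without any 1 of O1, O3, O4, Y2, Y3 or Y4 the call was lost (adjusted p up to 0.109), with folds between -1.30 and -0.85.

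**Figure D1:**
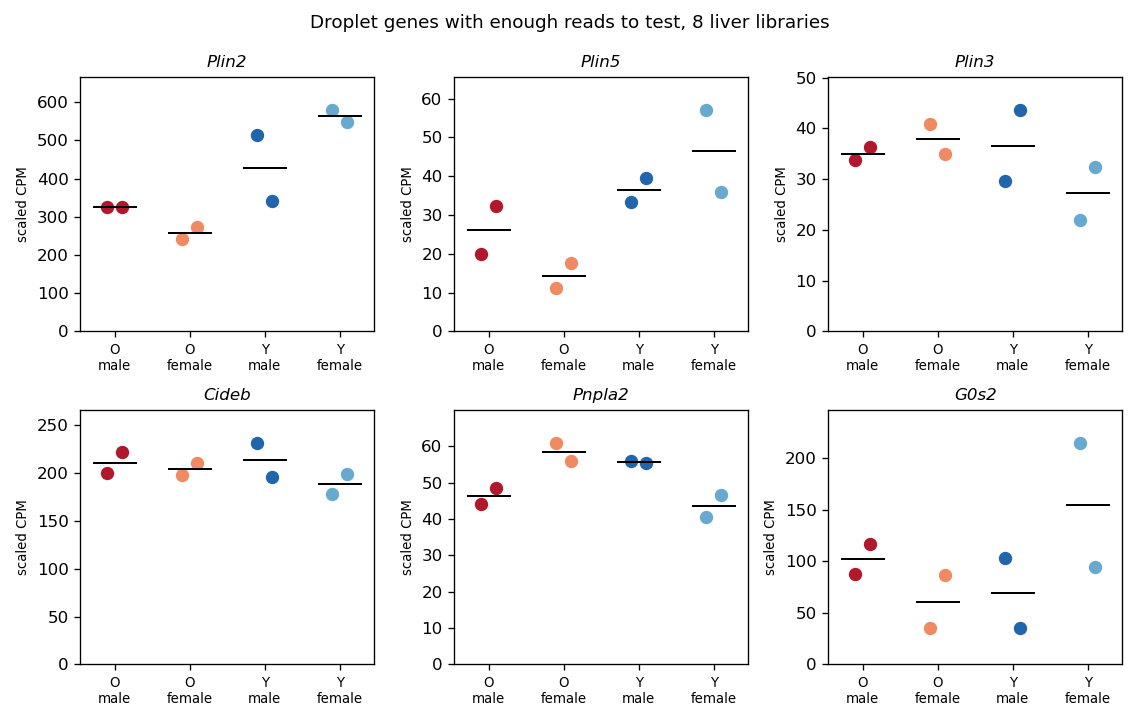
Levels of the 6 tested droplet genes in scaled CPM (vertical axis, from 0) in the 8 livers, grouped by title letter and sex; each point is 1 library and each bar the mean of 2. Plin2 and Plin5 lie lower in all 4 O-titled libraries, Cideb stays between 178 and 231 CPM, and G0s2 spreads from 35.6 to 214 CPM.

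In bulk liver, fewer cells of a type and less RNA per cell cannot be told apart. Of the 12 tested Kupffer cell and macrophage markers, 12 had a positive log2 fold in O-titled livers (median 0.58). The edgeR test passed 0 of them, DESeq2 2 and voom 0. At an unadjusted p under 0.05 edgeR had 6 of these 12 markers, against 1098 of all 6759 tested genes. The summed level of that list was 1410 to 1833 CPM in O1, O3 and O4, 583 CPM in O2 and 688 to 894 CPM in Y-titled libraries. Of 7 tested stellate cell markers 1 rose, Dcn (log2 fold 0.58, edgeR adjusted p = 0.00956, list median 0.42), with 1 in DESeq2 and 1 in voom. Of 9 tested sinusoidal endothelial markers 1 rose, Fcgr2b (0.62, edgeR adjusted p = 0.0490, list median -0.07), with 0 in DESeq2 and 1 in voom. Among all 6759 tested genes 141 rose in the edgeR test. Of 9 tested hepatocyte markers 0 passed (5 at an unadjusted p under 0.05, 0 by DESeq2 and 1 lower by voom, list median -0.10). The part of these cell types in the lower Plin2 and Plin5 was not tested.

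The third abundant perilipin and the other droplet genes did not follow Plin2. Plin3, which moves from the cytosol onto new droplets, was at 33.8, 36.3, 40.8 and 35.0 CPM in O1 to O4 and at 29.6, 43.6, 22.0 and 32.3 CPM in Y1 to Y4. Its groups overlapped (log2 fold 0.25, SE 0.193, edgeR adjusted p = 0.597). Plin4, a perilipin of adipocytes, had 5 reads in the 8 libraries together and no more than 1 in any of them. Plin4, Plin5 and Plin3 all lie on the minus strand of chromosome 17. There 1797 bases separate Plin4 from Plin5 and 159879 bases separate Plin5 from Plin3.

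Within the sexes, Plin2 and Plin5 passed the test in females and not in males. Among females Plin2 averaged 258 ± 22.8 CPM with title O and 564 ± 20.8 CPM with title Y (SD, n = 2 each), a fall of 1.13 on the log2 scale (SE 0.170, edgeR adjusted p = 2.71e-04). Plin5 in females was at 14.4 ± 4.40 against 46.4 ± 14.9 CPM and fell by 1.65 on the log2 scale (SE 0.322, edgeR adjusted p = 0.00340). These were 2 of 6 tested droplet genes, where 5.47% of all tested genes passed in females and 23.9% had both O-titled females below both Y-titled ones. Without Y3, the library highest in both genes, Plin5 lost its call in females (log2 fold -1.29, adjusted p = 0.108) and Plin2 kept its call. In the same comparison 3 of 9 hepatocyte markers fell and 0 rose, Hnf4a (log2 fold -0.57, edgeR adjusted p = 0.0304), Ttr (-0.55, 0.0270) and Serpina1c (-0.51, 0.0430), with a list median of -0.42, while in males 0 of 9 passed. By voom 3 fell in females, and by DESeq2 0 fell and 1 rose there. In edgeR 6 of the 9 had a negative and 3 a positive fold in females. Those 3, which did not pass, were Tat (log2 fold 1.24, edgeR adjusted p = 0.145), Cps1 (0.48, 0.312) and Asgr1 (0.40, 0.123). The part of hepatocyte content in the female fall was not tested.

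In males 0 of the 6 droplet genes passed the edgeR test (0 by DESeq2 and by voom), where 1.26% of all tested genes did. At an unadjusted p under 0.05 the count was 1 of 6, against 9.45% of all tested genes. Plin2 had a log2 fold of -0.41 (SE 0.169, adjusted p = 0.418) and Plin5 of -0.58 (SE 0.312, adjusted p = 0.619). For both genes each O-titled male lay below each Y-titled male, an order that 20.4% of all tested genes shared. The test of whether the fold differed between the sexes passed for 0 of the 6 genes (edgeR, and 0 by DESeq2 and by voom) and for 0.385% of all tested genes. At an unadjusted p under 0.05 it passed for 3 of 6, Plin2, Plin5 and Pnpla2, against 8.46% of all tested genes. For Plin2 the fold in females minus that in males was -0.72 (SE 0.238, adjusted p = 0.335), and for Plin5 it was -1.08 (SE 0.453, adjusted p = 0.507), so a difference between the sexes was not shown.

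**Figure D2:**
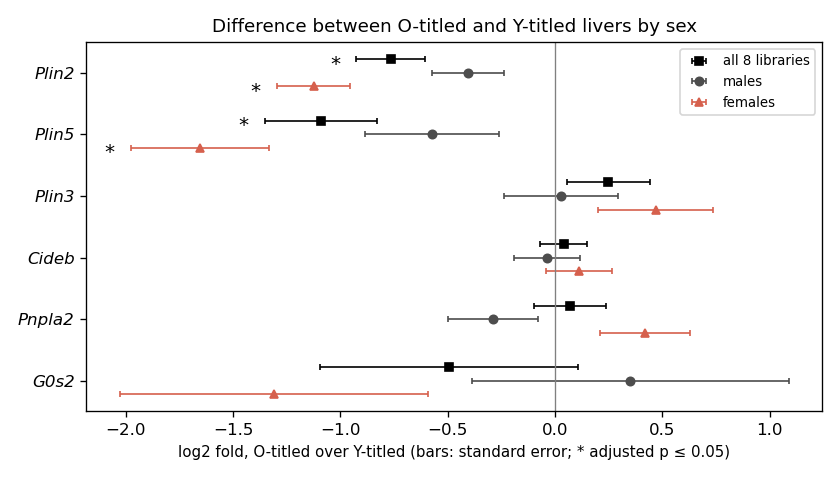
Log2 fold of O-titled over Y-titled livers (horizontal axis) for the 6 tested droplet genes in all 8 libraries, in males and in females, with bars of 1 standard error and an asterisk at an adjusted p of 0.05 or less. Plin2 and Plin5 lie left of 0 in each fit and furthest in females (-1.13 and -1.65), while Pnpla2 lies on opposite sides of 0 in the sexes.

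The lipase and its inhibitor gave no overall difference. Pnpla2 was at 44.2, 48.4, 60.8 and 56.0 CPM in O1 to O4 and at 56.0, 55.4, 40.4 and 46.7 CPM in Y1 to Y4, and its log2 fold was 0.07 (SE 0.167, edgeR adjusted p = 0.901). Both O-titled males lay below both Y-titled males (46.3 ± 2.94 against 55.7 ± 0.415 CPM, SD, n = 2 each) and both O-titled females above both Y-titled females (58.4 ± 3.37 against 43.5 ± 4.42 CPM, SD, n = 2 each). Such opposite separation in the sexes was seen in 5.67% of all tested genes, and the test of the difference between the sexes missed the threshold (0.71 on the log2 scale, SE 0.296, adjusted p = 0.507). G0s2 had the widest spread of the 6 genes, with 87.3, 117, 35.6 and 86.1 CPM in O1 to O4 and 103, 35.6, 214 and 94.2 CPM in Y1 to Y4. O3 and Y2 were the low libraries and Y3 the high one, and in 3 of the 4 pairs of the same sex and title the animals differed by more than the group means (log2 fold -0.49, SE 0.600, edgeR adjusted p = 0.778).

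Females and males differed in none of the 6 tested droplet genes past the threshold. The edgeR test with title letter in the model passed 0 of 6 (0 by DESeq2 and by voom), where 2.96% of all tested genes passed. At an unadjusted p under 0.05 it passed 0 of 6 as well, against 12.3% of all tested genes. The log2 folds of females over males ran from -0.11 in Cideb to 0.17 in G0s2.

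Among the CIDE genes, Cideb was even across the livers, while Cidea and Cidec were found almost wholly in the O-titled males. Cideb, the hepatocyte form that also helps to load very low density lipoprotein, was at 200, 222, 198 and 210 CPM in O1 to O4 and at 231, 196, 178 and 199 CPM in Y1 to Y4. The highest library was 1.30 times the lowest, the narrowest range of the 6 genes (log2 fold 0.04, SE 0.111, edgeR adjusted p = 0.925). Cidea, known from brown fat and from fatty liver, had 54 reads in O1, 36 in O2 and 0 in the other 6 libraries. Cidec, which enlarges droplets in fat cells and in fatty liver, had 68 reads in O1, 31 in O2, 6 in Y1, 2 in Y2, 1 in O4, 2 in Y4 and 0 in O3 and Y3. The 2 O-titled males thus stood apart from the other 6 livers in both genes.

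In reads per mapped total, Cidea was at 26.6 CPM in the O-titled males together and, against a floor of 3 reads over each group, at least 20.1-fold higher than in Y-titled males, 21.8-fold higher than in O-titled females and 20.04-fold higher than in Y-titled females. The O-titled males held Cidec at 29.2 CPM and the Y-titled males at 3.53 CPM, a ratio of 8.29 (exact 95% interval 4.05 to 19.7). That interval and those below cover counting error only, not the spread between animals. Cidea was the only 1 of 10658 genes with at least 20 reads (0.00938%) whose reads all came from the O-titled males, a count made after its values were seen. Cidea and Cidec together made up 19.0% (exact interval 16.0% to 22.2%) of CIDE reads in O1 and 28.9% (23.1% to 35.2%) in O2, and at most 1.98% in each of the other 6 libraries.

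**Figure D3:**
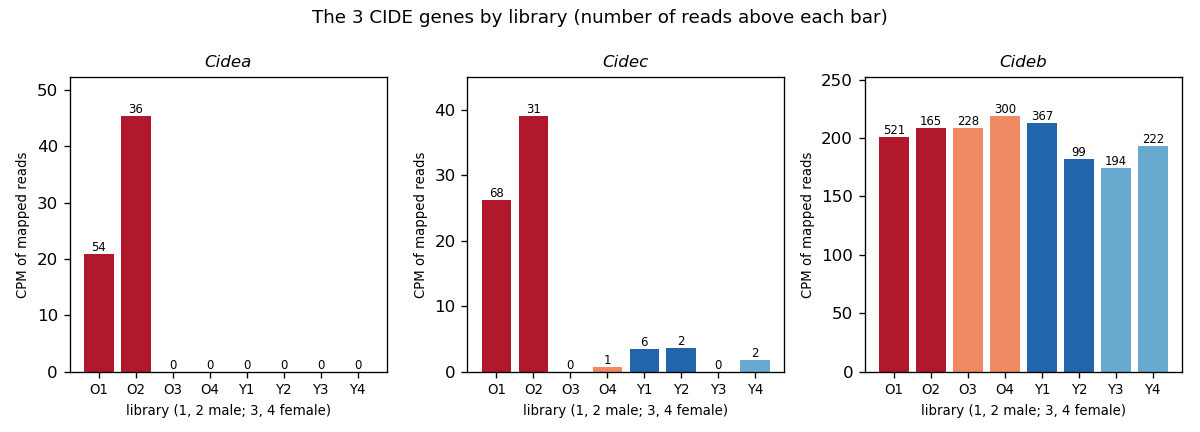
CPM of mapped reads (vertical axis, from 0) of the 3 CIDE genes in each of the 8 libraries, with the number of reads above each bar. Cidea and Cidec stand out in the males O1 and O2, with 54 and 36 and with 68 and 31 reads, while Cideb is present in each library.

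Whether this pattern passed a comparison of all O-titled with all Y-titled livers depended on the test. The exact two-sided permutation test over the 70 assignments of 4 against 4 gave p = 0.429 for Cidea and p = 0.486 for Cidec. The smallest p of this exact permutation test is 0.0286, but for Cidea, with reads in O1 and O2 alone, it is 0.429. For Cidea the exact permutation test thus cannot decide whether the titles differ. The exact test was run on 4 genes by title and by sex. Between the sexes the exact permutation test gave Cidec the smallest possible p of 0.0286 (3 reads in females, 107 in males). For Cidea the exact permutation test between the sexes gave p = 0.429, again the smallest its reads allow, so it cannot decide there either. That Cidec p is unadjusted, and 99 of the 107 male reads were from O-titled males. It also rests on the male Y2 lying above the female Y4 on 2 reads each, under the floor of 3. Under a count filter by the 4 groups of sex and title, added after the values were seen, Cidea and Cidec entered the edgeR test and had an adjusted p of 0.0201 and 0.00206 in males, and of 0.0235 and 0.00594 in all 8 libraries. They entered through the 2 libraries in which they were high, so those p-values are no support of their own. Under the same filter the edgeR test of whether the fold differed between the sexes passed neither gene. Its adjusted p was 0.576 for Cidec and 0.99997 for Cidea, which had 0 reads in each female. DESeq2 without a filter, also added, gave an adjusted p of 0.944 for Cidea and 0.0382 for Cidec in all 8 libraries, and of 2.59e-05 for Cidec between females and males. Within males it gave no adjusted p for either gene (DESeq2 unadjusted p = 0.123 for Cidea and 3.07e-04 for Cidec).

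Of the 12 adipocyte markers, Lep, Retn, Plin1 and Ucp1 had 0 reads in all 8 libraries, and Adipoq had 1 read, in O4. Cfd, the complement factor secreted by fat cells, had 7 reads in O1, 7 in O2, 6 in Y1, 1 in Y2 and 0 in each female. Fabp4 had 47, 9, 16 and 7 reads in O1 to O4 and 21, 8, 22 and 28 in Y1 to Y4, and Lipe had 17, 12, 13 and 16 against 13, 4, 4 and 3. Of 3 tested adipocyte markers 1 fell in O-titled livers, Car3 (log2 fold -0.64, edgeR adjusted p = 0.0205), with 1 in DESeq2 and 1 in voom. Among all tested genes 1.92% fell. Car3 was also lower in females than in males (log2 fold -0.83, edgeR adjusted p = 0.00443). The summed level of the 12 was 1824 to 2560 CPM in O-titled males and 2995 to 3155 CPM in Y-titled males. In females it was 1992 to 2345 CPM with title O and 1988 to 2519 CPM with title Y. That sum is mostly Car3 (12992 reads) and Pck1 (10685 reads), which each library expressed, and it includes Cidea, so it is no measure of fat cells here. The part of fat cells in the Cidea and Cidec reads was not tested. The transcription factor gene Pparg, which drives Cidec in fatty liver, had too few reads to be tested. Its reads were 19, 6, 12 and 14 in O1 to O4 and 22, 2, 2 and 8 in Y1 to Y4.

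Mogat1, which makes diacylglycerol from monoacylglycerol and is low in normal liver, had 6, 3, 1 and 2 reads in O1 to O4 and 1, 0, 1 and 1 in Y1 to Y4. With 12 against 3 reads in all, it reached the smallest possible p of the exact permutation test, 0.0286. That p is unadjusted, for 1 of the 4 genes tested, and no call is drawn from it. It also rests on O3 lying above Y3 on 1 read each (0.914 against 0.899 CPM of mapped reads). In 6 of the 8 libraries Mogat1 was under the floor of 3 reads. The p rests on these low counts. It rose above 0.05 without O2 or any 1 Y-titled library.

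Reads were also counted by transcript. Mean read length was 70.7% of Plin5-201, 81.1% of Plin5-202, 82.0% of Cidec-202 and 74.9% of Cidec-201. It was 61.6% of Pnpla2-203, 37.3% of Pnpla2-202 and 132% of Cidec-203. The shares below are thus of reads as assigned, which may differ from the transcripts used. Plin2, Plin3, Cideb, G0s2 and Cidea each had 1 transcript with reads, Plin2-201, Plin3-201, Cideb-201, G0s2-201 and Cidea-201. Plin5 was split between Plin5-201 with 188 reads and Plin5-202 with 101 reads (34.9%), whose starts lie 298 bases apart. The share of Plin5-202 was 27.5% to 40.0% in the other 7 libraries, while in Y2 14 of 20 reads were Plin5-202 (exact interval 45.7% to 88.1%). Plin5 was the only droplet gene with enough reads on 2 transcripts for the usage test, which gave an adjusted p of 1.00 in O-titled against Y-titled livers. In that test (diffSpliceDGE) 0 of 1236 genes passed, 8 at an unadjusted p under 0.05, and the gene-wise F test of the same tool passed 0 as well.

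Pnpla2-203 held 84.8% of Pnpla2 reads and Pnpla2-202, which ends 649 bases earlier, held 15.2%, with a range of 6.82% to 20.2% over the libraries. Cidec-202 had 66 reads and Cidec-201 had 41, and their first exons differ by 15 bases. Cidec-203, which starts 996 bases further in and adds 10 codons, had 3 reads, in O1, O4 and Y1. It is named although it falls under the share of 5% used for the others. Its annotation ends 923 bases before that of Cidec-202, and reads from its start may have been counted on the other transcripts. In O-titled males Cidec-202 made up 64.6% of 99 Cidec reads (exact interval 54.4% to 74.0%), and in Y-titled males 25.0% of 8 reads (3.19% to 65.1%), intervals that overlap. The RefSeq window of the first Cidec start, whose transcripts were given 107 of the 110 reads, is printed because Cidec separated the O-titled males, and it holds none of the 5 motifs.
Cidec, chr6:113435711-113436010, minus strand: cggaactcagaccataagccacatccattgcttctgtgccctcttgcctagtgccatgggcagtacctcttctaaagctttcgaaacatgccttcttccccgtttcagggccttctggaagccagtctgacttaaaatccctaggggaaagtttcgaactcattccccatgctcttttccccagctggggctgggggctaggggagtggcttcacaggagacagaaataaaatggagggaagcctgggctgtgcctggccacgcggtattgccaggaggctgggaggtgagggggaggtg
Mogat1-201 had 9 reads and Mogat1-202 had 6. The 5 Plin4 reads fell on Plin4-202 (2), Plin4-201 (1) and a transcript that GENCODE M21 does not hold (2).

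The genes whose levels over the 8 libraries were closest to those of Plin2, by the root mean square difference of centred log2 CPM, were Fabp1 (0.13), which carries fatty acids in the hepatocyte cytosol, Pxmp4 (0.14), a peroxisomal membrane protein gene, and Tmem56 (0.16). The median over all tested genes was 0.53, and Plin5 was at 0.38. Closest to Plin5 were Trp53inp2 (0.25), Dtnb (0.26) and Shld2 (0.27), where the median was 0.72 and Plin2 ranked 47th. These are descriptions over 8 livers that share the same 2 groups.

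The rest of the pathway was read through 5 lists, beside a median log2 fold of all tested genes within 0.01 of 0. For comparison with the count of each list, 141 of all 6759 tested genes rose and 130 (1.92%) fell at the same threshold. Of the 10 droplet genes the 6 tested had a median of -0.23. Of 14 tested other lipases and their regulators 0 rose and 2 fell (median -0.21). Angptl4 encodes a fasting-induced inhibitor of lipoprotein lipase. It was at 31.1, 67.2, 54.7 and 61.6 CPM in O1 to O4 and at 117, 107, 196 and 166 CPM in Y1 to Y4. It fell by 1.502 on the log2 scale (SE 0.186, edgeR adjusted p = 1.94e-04) with no overlap, the largest fall among the list genes that passed. Aadac, an ester hydrolase of the endoplasmic reticulum and the most abundant gene of its list, fell by 0.48, from 741 ± 27.2 to 533 ± 55.3 CPM (SD, n = 4 each, adjusted p = 0.0125, and 0.0641 without Y4). The triglyceride hydrolase Ces1d, next in abundance, was at 512 ± 228 and 522 ± 40.6 CPM (log2 fold -0.07).

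Of 17 tested other coat and assembly genes 2 rose and 0 fell (median 0.01). Fitm1, which helps to form droplets at the endoplasmic reticulum, was at 148, 184, 26.9 and 40.6 CPM in O1 to O4 and at 49.7, 27.7, 7.35 and 15.3 CPM in Y1 to Y4. It rose by 1.83 on the log2 scale (SE 0.217, edgeR adjusted p = 8.68e-05) and was higher in O-titled livers within each sex, with the O-titled males highest. The call needed the sex covariate, since males also exceeded females (102 ± 75.4 against 22.5 ± 14.5 CPM, SD, n = 4 each, log2 fold of females over males -2.14, adjusted p = 8.35e-06). Acsl3, an acyl-CoA synthetase of growing droplets, rose from 19.0 ± 4.001 to 41.4 ± 4.36 CPM (SD, n = 4 each, log2 fold 1.09, adjusted p = 0.00252), but not past the threshold after thinning to the smallest library. The most abundant genes of the list, Mettl7b and Hsd17b13, had log2 folds of 0.36 (adjusted p = 0.0571) and -0.04. Bscl2, which encodes seipin, was lower in females (33.2 ± 4.80 against 53.0 ± 3.51 CPM, SD, n = 4 each, adjusted p = 0.0329), a call lost in DESeq2, with mapped-read totals, after thinning and in 6 of the 8 fits without 1 library.

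Of 10 tested triglyceride synthesis genes 0 rose and 1 fell (median -0.14). Acsl1, the main acyl-CoA synthetase of liver, fell by 0.61 on the log2 scale, from 430 ± 57.0 to 282 ± 42.7 CPM (SD, n = 4 each, edgeR adjusted p = 0.0102). The 2 most abundant genes, Dgat2, which adds the last fatty acid to triglyceride, and Acsl5, had log2 folds of 0.28 and -0.11 and did not pass. Of 8 tested genes of very low density lipoprotein assembly 0 passed (0 by DESeq2 and by voom, median 0.08), including the abundant Apob (log2 fold -0.11) and P4hb (0.09). At an unadjusted p under 0.05 edgeR had 2 of the 8, against 1098 of all 6759 tested genes. Tm6sf2 of that list was higher in females (51.9 ± 7.81 against 28.3 ± 13.4 CPM, SD, n = 4 each, adjusted p = 0.0362), which was lost in voom, after thinning and in 6 of the 8 fits without 1 library. Ces1g, a lipase of the second list, was also higher in females (228 ± 33.9 against 144 ± 15.6 CPM, SD, n = 4 each, adjusted p = 0.00329).

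**Figure D4:**
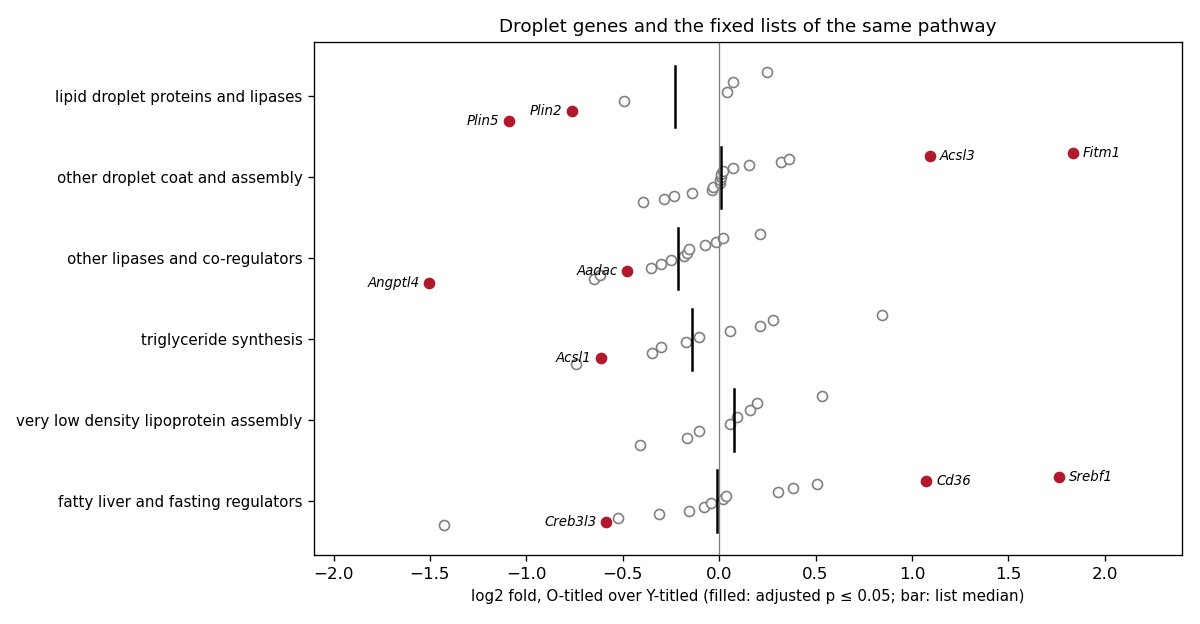
Log2 fold of O-titled over Y-titled livers (horizontal axis) for each tested gene of the droplet set and the 5 pathway lists; filled points passed at an adjusted p of 0.05 and black bars are list medians. Plin2, Plin5, Angptl4, Aadac, Acsl1 and Creb3l3 lie to the left, and Acsl3, Fitm1, Cd36 and Srebf1 to the right.

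Of 14 tested regulators of fatty liver and fasting 2 rose and 1 fell (median -0.01). Srebf1, the transcription factor gene of insulin-driven fat synthesis, was at 351, 352, 210 and 276 CPM in O1 to O4 and at 104, 115, 68.9 and 67.3 CPM in Y1 to Y4, with no overlap. It rose by 1.76 on the log2 scale (SE 0.122, edgeR adjusted p = 2.39e-07) and was lower in females than in males (log2 fold -0.59, adjusted p = 0.00867). Cd36, a fatty acid importer, rose from 38.1 ± 10.1 to 82.3 ± 28.4 CPM (SD, n = 4 each, log2 fold 1.07, adjusted p = 9.28e-04), a call lost without the sex covariate. It was also higher in females (log2 fold 0.72, adjusted p = 0.0210), which was lost in DESeq2, after thinning and in 4 of the 8 fits without 1 library. Creb3l3, which encodes a fasting-activated factor of the endoplasmic reticulum, fell from 205 ± 7.94 to 135 ± 16.6 CPM (SD, n = 4 each, log2 fold -0.59, adjusted p = 0.00762). The abundant Cebpa and Cebpb had log2 folds of 0.04 and 0.51 and did not pass.

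On mm10, Plin2 (ENSMUSG00000028494) lies on chromosome 4 from 86648386 to 86670060 and Plin5 (ENSMUSG00000011305) on chromosome 17 from 56111601 to 56117596. Cidec (ENSMUSG00000030278) lies on chromosome 6 from 113424634 to 113435760 and Cideb (ENSMUSG00000022219) on chromosome 14 from 55754050 to 55758458. Pnpla2 (ENSMUSG00000025509) lies on chromosome 7 from 141455198 to 141460743, and on chromosome 1 are G0s2 (ENSMUSG00000009633) from 193272161 to 193273217 and Mogat1 (ENSMUSG00000012187) from 78510991 to 78538173. Plin3 (ENSMUSG00000024197) and Plin4 (ENSMUSG00000002831) lie on chromosome 17 from 56277476 to 56292873 and from 56100591 to 56109803. All are protein-coding genes, and reads were counted on their annotated transcripts.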

How the data were processed

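The deposited tables hold whole-number counts of reads per transcript, not normalized, and the counts of each library summed to its mapped reads. RNA with poly(A) tails was captured and read directly on MinION flow cells, per the labels' protocols. Per the submitters' processing notes, minimap2 2.24, mm10 and DESeq2 were used, the last with no stated role, and the counting tool and annotation are not given in the sources used here, nor is the treatment of reads that fit more than 1 transcript.

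Transcript counts were added up per gene, and R 4.3.3 with edgeR 4.0.16 ran the main test (filterByExpr at a minimum count of 10 by title letter, TMM scaling, robust quasi-likelihood test, Benjamini-Hochberg adjustment over 6759 genes at 0.05), with sex as covariate. A fit of the 4 groups of sex and title gave the folds within each sex and their difference. Genes under the filter were compared by exact permutation of log2 of CPM of mapped reads plus 0.5. Intervals are exact binomial ones at 95%, and they and the floor of 3 reads cover counting error only. DESeq2 1.42.0 and voom of limma 3.58.1 were alternatives, with other scalings and filters, thinning and leaving out each library. Scripts were tested on simulated data.

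Libraries are separate animals, so p-values measure the spread between animals. The genes, lists and motifs were chosen with earlier results of these data known. Named genes of a list are those called between titles, between sexes or in the test of the difference between the sexes, and its 2 most abundant; genes called only within 1 sex are not named, and named transcripts hold at least 5% of a gene's reads, except Cidec-203. The cell type markers named were picked with their values known. The Cidea promoter was not used here.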

Additional observations from a re-analysis of the deposited data

Results flagged for a closer look

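Acsl1 in Y3 was at 514 CPM, while the other 3 Y-titled libraries lay between 392 and 408 CPM, so that this library stood further from the rest than the 95% limit for the gap in a group of 4. Over the 36 groups of 4 looked at (18 genes), 1 had such a gap, and chance gives about 1 in 20. Y3 was also the highest library in Plin2 and Plin5.

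Klf15, which encodes a fasting and glucocorticoid-responsive transcription factor, had a fold of O-titled over Y-titled livers that differed between the sexes by 1.31 on the log2 scale, females minus males (SE 0.284, edgeR adjusted p = 0.0450). It was at 95.5 and 125 CPM in O3 and O4 against 51.4 and 61.0 CPM in Y3 and Y4, and in males at 80.0 and 105 CPM in O1 and O2 against 109 and 121 CPM in Y1 and Y2. The call was lost in DESeq2, after thinning and in 6 of the 8 fits without 1 library, where adjusted p reached 0.301.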

How the results depend on the processing

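The 19 single-gene calls kept their direction in all fits run. Reversals came in 31 of 838 single-gene fits, all for 11 results that had not passed. The female over male folds turned to 0.0194 in Plin3 and 0.0140 in Plin5 with mapped-read totals, and to 0.0426 in Plin5 and -0.0516 in Pnpla2 after thinning. In males Plin3 turned to -0.0157 in DESeq2, -0.0248 in DESeq2 with no filter and -0.44 after thinning, and Cideb turned to 0.0361 with mapped-read totals and 0.0439 after thinning, while the Cideb difference between the sexes turned to -0.0076 after thinning. Without 1 library, O over Y folds ran from -0.0086 to 0.12 in Cideb and from -0.0432 to 0.20 in Pnpla2. Female over male folds ran from -0.15 to 0.14 in Plin2, -0.17 to 0.0536 in Plin3, -0.36 to 0.10 in Plin5, -0.12 to 0.15 in Pnpla2 and -0.30 to 0.51 in G0s2. Folds in males ran from -0.32 to 0.23 in Plin3, -0.14 to 0.10 in Cideb and -0.0469 to 1.48 in G0s2.

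The 2 droplet genes called in O against Y became 4 with no filter, and 4 with a filter by 4 groups in edgeR and in voom (both added after seeing the data), and 3 in DESeq2 with no filter (added), fits in which Cidea and Cidec enter the test (in DESeq2 Cidec alone passed), and 0 to 2 without 1 library. Likewise 0 in females against males became 2 with no filter, 2 with the 4-group filter, 1 in voom with it and 1 in DESeq2 with no filter (added), and 0 in males became 2 with no filter and 2 with the 4-group filter in edgeR and voom. The 2 called in females were 1 to 2 without 1 library, and the 1 gene under the filter (Mogat1) was 0 with assignments kept within sex, where no p under 0.0556 is possible, and 0 to 1 without 1 library. With the replicate number as a block, 0 droplet genes were called (Plin2 adjusted p = 0.0519, Plin5 0.0660). Same-numbered libraries share a sex, and beyond sex their deviations correlated at -0.06 in males and -0.03 in females. With 2 animals per sex and title each sex gives only 1 such value, so whether the numbers pair animals cannot be decided. Before sex was taken out, only replicate 1 correlated best with its own number.

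Over all genes, 271 calls in O against Y were 600 with no filter, 165 after thinning, 134 without the sex covariate and 154 to 294 without 1 library. In females 370 were 191 in DESeq2 (195 with no filter), 184 after thinning and 133 to 371 without 1 library. In males 85 were 211 with no filter and 31 to 127 without 1 library. For females against males 200 were 401 with no filter, 119 after thinning and 125 to 217 without 1 library. For the difference between the sexes 26 were 100 with no filter, 43 in DESeq2 with no filter and 8 to 45 without 1 library. The cause was not tested. Depth limits Plin4, Mogat1 and the transcript shares, since the floor of 3 reads is 5.50 CPM in Y2.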

Other observations

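The Mup genes, a male-biased family of urinary proteins whose members share reads, held 0.287% of mapped reads in the female O3 and 3.04% to 4.65% in the other 3 females. O3 was also the lowest library in Plin2 and in Plin5. All droplet genes together held 622 to 825 CPM of mapped reads in O-titled and 662 to 1069 CPM in Y-titled libraries, ranges that overlap through Y2.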
